A study of Mus musculus with 2 samples.

Results

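The sarcomeric myosin heavy chain genes are the genes that encode the motor protein of the thick filament of striated muscle. The 9 genes Myh1, Myh2, Myh3, Myh4, Myh6, Myh7, Myh7b, Myh8 and Myh13 were taken by symbol, and all 9 were among the 27998 genes listed for each library. They were followed in nuclei of mouse gastrocnemius-plantaris (GP) muscle by single-nucleus RNA-Seq of the 3′ ends of transcripts. The Ctrl library came from Net39 fl/fl mice without Cre, and the cKO library from HSACreERT2;Net39 fl/fl mice, in which tamoxifen activates a Cre recombinase driven by the human skeletal actin promoter in muscle fibers but not in satellite cells or heart. By their labels both groups had the strain background B6C3F1, had received tamoxifen 3 months earlier and were 5 months of age, and both carried the floxed alleles. Net39 (gene symbol Plpp7) encodes a protein of the nuclear envelope. Each group was 1 library made from 3 pooled muscles, so there were no biological replicates. Every interval below is a 95% interval that covers counting error only, and no difference between the groups was tested.

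Each adult muscle fiber type is named after the myosin heavy chain it uses. Slow type I fibers use Myh7, and the fast types IIa, IIx and IIb use Myh2, Myh1 and Myh4, in order of rising shortening speed. Myh3 and Myh8 are the embryonic and perinatal forms, which are replaced by adult forms after birth and return in regenerating fibers. Myh13 is the form of extraocular and laryngeal muscle, Myh6 is the main form of the adult mouse heart and of some specialized fibers, and Myh7b is an ancient slow-tonic form.

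After filtering, 3526 Ctrl and 3595 cKO nuclei with 8930961 and 7237405 unique molecular identifiers (UMIs, one per captured transcript) were used. The median depth was 2040.5 and 1611 UMIs per nucleus, and 5 barcodes occurred in both libraries. Plpp7 had 428 UMIs in Ctrl and 297 in cKO, but reads from the 3′ end do not report on the deleted first exon. Nuclei were classed without using any of the 9 myosin genes. Those with at least 3 UMIs from at least 2 markers of a non-fiber cell type were set aside as non-fiber nuclei, and the rest, 2933 in Ctrl and 3345 in cKO, were called myonuclei. Titin (Ttn), the giant spring protein of the sarcomere, was at 44943 CPM (UMIs scaled to a fixed common total, by all UMIs of the nuclei in question) in Ctrl myonuclei and 37772 in cKO myonuclei. The 9 main transcripts were 6016 to 6230 bases long, and the assay primes at 3′ ends, so CPM was compared between the genes without a further length correction. Whether intronic reads were counted is not given in the sources used here, which limits comparisons of levels between genes.

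All 4 adult genes were detected in both libraries, and the order of their levels in myonuclei was Myh4, Myh1, Myh2, Myh7 in each, with no overlap between the intervals of neighbors in that order. Myh7 had 209 UMIs in Ctrl myonuclei and 2786 in cKO myonuclei. That was a level of 28.0 CPM (24.4 to 32.1) against 415 CPM (399.5 to 430.5), or 14.8-fold higher in cKO (12.8 to 17.1). Of the adult genes, Myh7 alone was more than 2-fold apart between the libraries. Myh2 was at 267 CPM in Ctrl (255 to 279) and 473 in cKO (457 to 489.6), a ratio of 1.77 (1.67 to 1.88). Myh1 was at 520.4 CPM in Ctrl (504 to 537) and 739 in cKO (719 to 760.02), a ratio of 1.42 (1.36 to 1.48). Myh4, the most abundant, was at 2146 CPM in Ctrl (2112 to 2179) and 1979 in cKO (1945 to 2013). Its ratio of 0.922 (0.901 to 0.944) was close to 1 and depended on the scaling, since leaving out Malat1 and mitochondrial UMIs moved it to -0.021 on the log2 scale (-0.054 to 0.012) from -0.12. The 4 genes together held 2961 CPM in Ctrl and 3606 CPM in cKO. Within that sum, Myh7 made up 0.947% of the UMIs in Ctrl and 11.5% in cKO, and Myh4 72.5% and 54.9%.

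**Figure D1:**
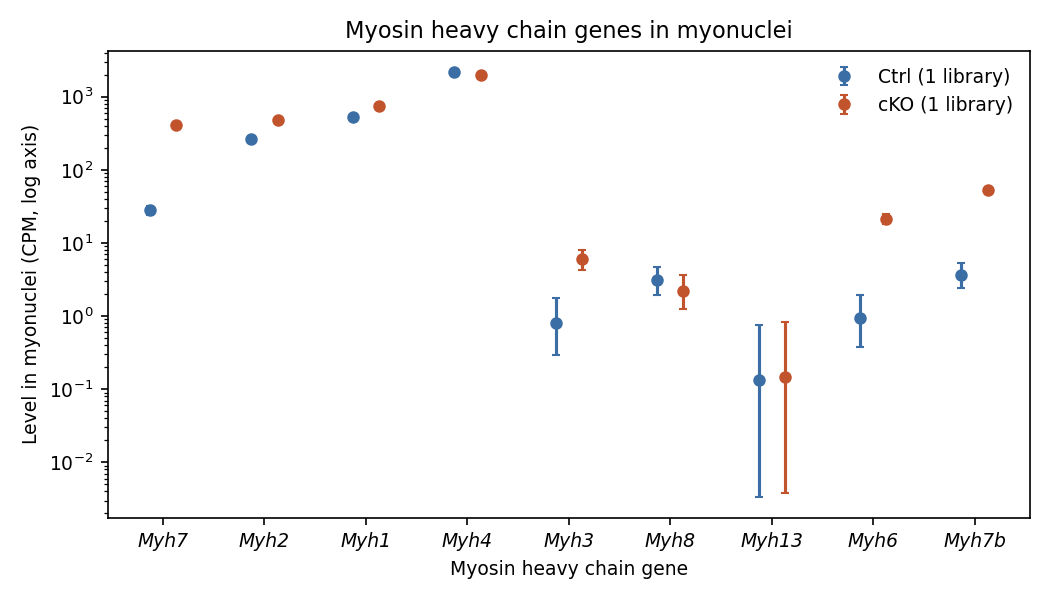
Level of each of the 9 myosin heavy chain genes in the myonuclei of the Ctrl and the cKO library, in CPM on a log axis; bars are exact Poisson 95% intervals of 1 library each. Myh7, Myh3, Myh6 and Myh7b sit higher in cKO, Myh4 is the highest in both, and Myh13 rests on 1 UMI in each library.

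Of the minor genes, Myh6 had 7 UMIs in Ctrl myonuclei and 143 in cKO, or 0.939 against 21.3 CPM, a ratio of 22.7 (10.7 to 57.4). Myh7b had 27 and 356 UMIs, or 3.62 against 53.0 CPM, a ratio of 14.6 (9.89 to 22.5). Both were higher in cKO, with ratio intervals that overlap the one of Myh7. The embryonic gene Myh3 had 6 UMIs in 2 Ctrl nuclei and 40 UMIs in 11 cKO nuclei. Its levels were 0.805 and 5.96 CPM, a ratio of 7.40 (3.12 to 21.4), but 5 of the 6 Ctrl UMIs and 14 of the 40 cKO UMIs came from 1 nucleus each. In slow-marker nuclei (defined below by other genes), which held 5 and 34 of these UMIs, Myh3 was at 34.3 CPM in Ctrl and 23.8 in cKO, a ratio of 0.693 (0.270 to 2.27). The perinatal gene Myh8 had 23 UMIs in Ctrl myonuclei and 15 in cKO, with a ratio of 0.724 (0.351 to 1.45). Outside the fibers, a single Ctrl nucleus with satellite cell markers held 13 Myh8 UMIs. Myh13 had 1 UMI in each library, and nothing can be said of its level at this depth. With at least 20 UMIs over both libraries, 8 of the 9 genes could be compared in myonuclei. Of these, 4 (Myh7, Myh3, Myh6, Myh7b) were at least 2-fold higher in cKO and 0 were at least 2-fold lower, while of all 11382 genes so compared 4.19% were at least 2-fold higher and 4.45% at least 2-fold lower. Myh3 and Myh6 reached the minimum only through their UMIs in cKO, so that these 2 could enter the comparison only by being higher there, and the count is a description only.

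Myosin UMIs in nuclei classed as other cell types were taken as the background of these values. Over all non-fiber nuclei (593 in Ctrl, 250 in cKO) the 4 adult genes still summed to 1933 and 2052 CPM, with Myh4 at 72.6% and 56.1% of their UMIs. In Ctrl, single non-fiber nuclei held up to 82 Myh4 and 66 Myh1 UMIs, above the maxima of 50 and 37 in myonuclei. In cKO they held up to 48 and 29, below 59 and 46. Whether such nuclei were doublets or misclassed fiber nuclei was not tested. Of the non-fiber nuclei, 87 and 35 had exactly 3 marker UMIs, so a stricter set with at least 20 marker UMIs was also taken (89 and 30 nuclei, median depth 2897 and 2380.5 UMIs). There Myh4 was at 556 CPM in Ctrl (476 to 646) and 560 in cKO (421 to 731), while Myh7 had 4 and 1 UMIs, or 12.9 CPM (3.53 to 33.1) and 10.4 CPM (0.263 to 57.8). The Myh7 level of Ctrl myonuclei as a whole was thus within the interval of the strict Ctrl background, and that of cKO myonuclei was above the cKO one. Over all non-fiber nuclei, however, Myh7 had 20.99 CPM (14.3 to 29.8) in the Ctrl library and 199.8 CPM (163 to 242) in the cKO library, a ratio of 9.52 (6.32 to 14.7), so that the background by this wider set also differed between the libraries. Its part in the values of myonuclei was not tested.

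To place the UMIs, myonuclei were graded by slow and fast markers other than myosin heavy chains, such as troponins and SERCA calcium pumps. Nuclei with at least 60% slow UMIs among at least 3 marker UMIs were called slow-marker, those with 20 to 60% mixed-marker and those under 20% fast-marker. These classes are ranges of a score and not cell types. In Ctrl 62 nuclei were slow-marker, 202 mixed-marker and 2598 fast-marker. In cKO the counts were 653, 477 and 2070, so that slow-marker nuclei made up 2.11% of Ctrl myonuclei (1.62 to 2.70) and 19.5% of cKO myonuclei (18.2 to 20.9). Thinning every nucleus to 500 UMIs gave 1.94% and 14.2%. At that depth 39.9% of Ctrl and 37.6% of cKO myonuclei had too few marker UMIs for a class, against 2.42% and 4.33% at full depth. These nuclei stay in the total, so the thinned shares are not comparable in size with the full ones. Around the upper limit, 21 of the 62 Ctrl and 117 of the 653 cKO slow-marker nuclei had 60 to 70% slow UMIs, a larger part in Ctrl.

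Slow-marker nuclei of the 2 libraries carried a different mix of myosins. Myh7 was at 1118 CPM in Ctrl (953 to 1303) and 1709.6 in cKO (1643 to 1779), a ratio of 1.53 (1.30 to 1.80). The fast IIa gene Myh2 went the other way, with 1083 CPM in Ctrl (921 to 1266) and 438 in cKO (405 to 474), a ratio of 0.405 (0.339 to 0.485). Myh7 therefore made up 36.5% of the adult myosin UMIs of Ctrl slow-marker nuclei (32.1 to 41.2) and 65.3% of those of cKO (63.8 to 66.8). Myh1 was at 473 and 228 CPM and Myh4 at 384 and 241 CPM in slow-marker nuclei, and the Myh4 values lie below those of the strict non-fiber nuclei. The Myh1 values lie above its 197 and 51.8 CPM in the strict set. Over all non-fiber nuclei Myh1 was at 345 and 398 CPM, and the cKO slow-marker value lies below that. The Ctrl values rest on 62 nuclei, and with the limit set at 80% slow UMIs the difference in Myh7 shrank to 0.15 on the log2 scale (-0.10 to 0.42) from 0.61.

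Myh2 was highest in mixed-marker nuclei. It reached 1863 CPM there in Ctrl (1745 to 1987) and 1293 in cKO (1226 to 1362), a ratio of 0.694 (0.638 to 0.755). Myh1 was at 1092 CPM (1002 to 1188) and 1018 CPM (958 to 1079.7) in the same nuclei, with a ratio of 0.932 (0.840 to 1.03). Myh4 was at 549 CPM (486 to 618) and 742 CPM (691 to 795) in mixed-marker nuclei, below its 1402 and 1151 CPM in all non-fiber nuclei, while the cKO value lay above the 560 CPM of the strict set. Myh7 was at 62.6 CPM (42.5 to 88.8) and 187 CPM (162 to 215), above the 12.9 and 10.4 CPM of the strict non-fiber nuclei. Against all non-fiber nuclei, at 20.99 and 199.8 CPM, only the Ctrl value was higher. The share of Myh2 among the adult myosin UMIs of mixed-marker nuclei was 52.2% in Ctrl and 39.9% in cKO.

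Fast-marker nuclei held most of the Myh4 and Myh1 UMIs. Myh4 was at 2315 CPM in Ctrl (2279 to 2352) and 2963 in cKO (2911 to 3017), so that within fast-marker nuclei it was 1.28-fold higher in cKO (1.25 to 1.31). Myh1 was at 477 CPM (460.4 to 494) and 852 CPM (824 to 881), a ratio of 1.79 (1.70 to 1.88). Myh7 had 15 UMIs in Ctrl and 121 in cKO fast-marker nuclei, or 2.23 and 29.8 CPM. Both values lie below the Myh7 level of all non-fiber nuclei (20.99 and 199.8 CPM), a level to which single nuclei with up to 10 and 22 UMIs contributed. Against the strict set, at 12.9 and 10.4 CPM, the cKO value was higher but within its interval (0.263 to 57.8). After thinning to 500 UMIs 1.88% of cKO fast-marker nuclei had a Myh7 UMI against 3.60% of all non-fiber nuclei (median depths 1589 and 1382.5 UMIs before thinning). Of the 30 strict non-fiber nuclei of cKO, 0 had a Myh7 UMI after this thinning, which allows a share of up to 10.0% by a limit of 3 counts (exact upper bound 11.6%), so expression of Myh7 in fast-marker nuclei was not read from these values. Myh2 in fast-marker nuclei was at 132 and 253 CPM, against 164 and 304 CPM in all non-fiber nuclei and 110.0 and 311 CPM in the strict set, where 29 of the 30 cKO UMIs came from 1 nucleus. Its mean level there was thus no clear excess over background, but single fast-marker nuclei held up to 25 Myh2 UMIs in Ctrl and 23 in cKO, and Myh2 dominated 62 and 93 of them by the call described below.

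**Figure D2:**
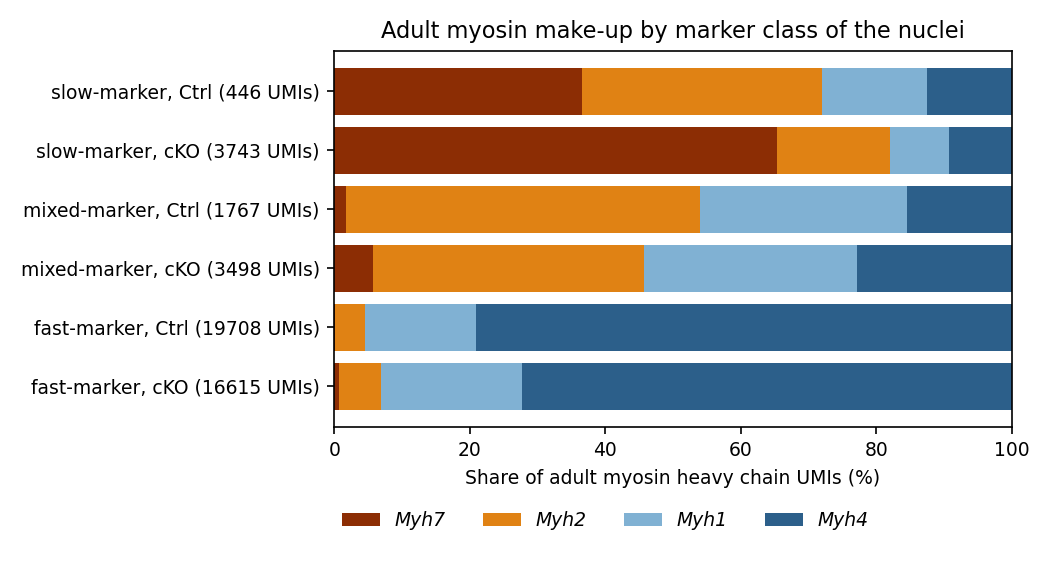
Share of each adult gene among the adult myosin heavy chain UMIs, by marker class and library, with the number of UMIs behind each bar. Myh7 takes 36.5% of the bar in Ctrl slow-marker nuclei and 65.3% in cKO, Myh2 is the largest part in mixed-marker nuclei, and Myh4 in fast-marker nuclei.

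The levels of the library as a whole were then set against the change in class sizes. Each Ctrl class level was weighted by the share of cKO myonuclear UMIs that the class held. For Myh7 this gave 249 CPM, between the 28.0 CPM of Ctrl and the 415 CPM of cKO. For Myh1 the weighted value was 581 CPM, again between the libraries. For Myh2 it was 615 CPM, above the 473 CPM found in cKO. For Myh4 it was 1589 CPM, below the 1979 CPM found. The opposite weighting, cKO class levels by Ctrl class sizes, gave 74.1 CPM for Myh7 and 332 CPM for Myh2, both between the libraries. It gave 848 CPM for Myh1 and 2740.4 CPM for Myh4, both above either library. Slow-marker nuclei held 1.96% of the myonuclear UMIs in Ctrl and 21.3% in cKO. They contributed 78.0% of the Myh7 UMIs of Ctrl myonuclei and 87.8% of those of cKO. By contrast, 0.350% of the Ctrl Myh4 UMIs and 2.60% of the cKO ones came from slow-marker nuclei.

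**Figure D3:**
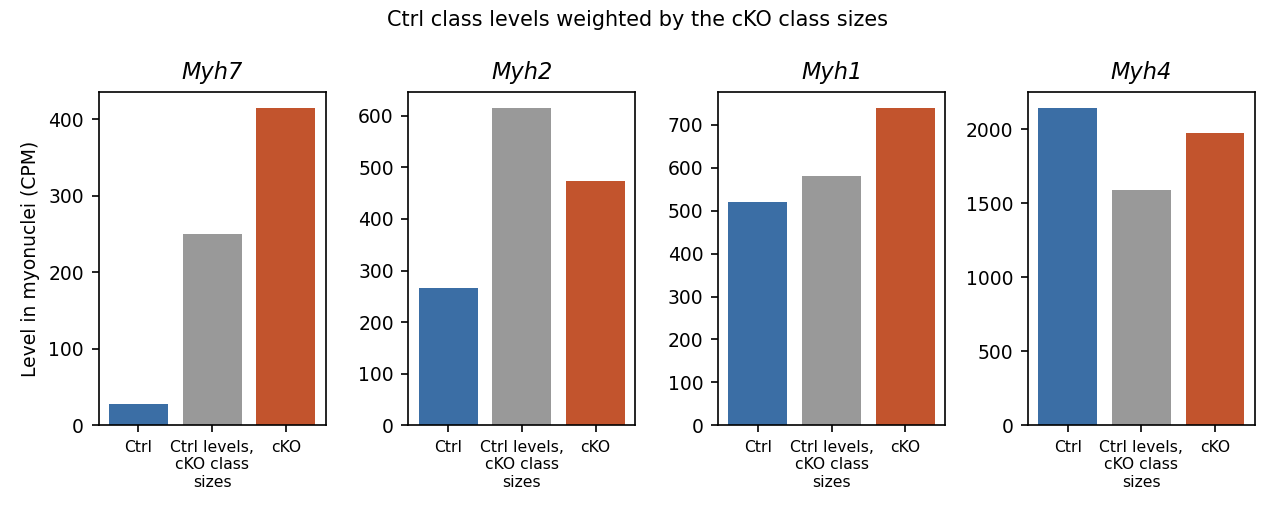
Level of each adult gene in myonuclei (CPM, each panel with its own axis from 0): the Ctrl library, the Ctrl class levels weighted by the cKO class sizes, and the cKO library. The weighted value is 249 CPM for Myh7 and 581 for Myh1, below the cKO level of each, 615 CPM for Myh2, above it, and 1589 CPM for Myh4, below both libraries.

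A nucleus was called dominated by an adult gene that held at least 60% of at least 3 adult myosin UMIs, and hybrid if no gene did. After thinning to 500 UMIs, Myh7 dominated 6 of 2933 Ctrl myonuclei, 0.205% (0.0751 to 0.445), and 102 of 3345 cKO myonuclei, 3.05% (2.49 to 3.69). Myh2 dominated 1.88% and 4.01%, Myh1 3.14% and 4.63%, and Myh4 12.99% and 15.96%. The differences moved with the settings. That of Myh7 was 2.84 points, 7.63 without thinning and 0.773 when at least 5 myosin UMIs were asked for. That of Myh2 was 2.13 points, 4.20 without thinning, 1.04 at a limit of 80% and 0.296 (-0.13 to 0.72) with at least 5 myosin UMIs. Most nuclei, 81.0% and 71.0%, had too few myosin UMIs at this depth. At full depth Myh4-dominated nuclei were 1859 in Ctrl and 1443 in cKO, so the order between the libraries turned with depth, and no direction was read from the Myh4 share. Among nuclei with a call after thinning, 68.3% in Ctrl and 55.1% in cKO were Myh4-dominated, and 1.08% and 10.5% Myh7-dominated.

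The call by myosin and the class by markers were then crossed at full depth. Of the 47 Ctrl slow-marker nuclei with at least 3 adult myosin UMIs, 17 were dominated by Myh7 and 17 by Myh2. Of the 408 such cKO nuclei, 259 were dominated by Myh7, 63.5% (58.6 to 68.2), and 68 by Myh2. In fast-marker nuclei, Myh7 dominated 0 of 2222 nuclei in Ctrl and 2 of 1804 in cKO. Mixed-marker nuclei were most often Myh2-dominated, 79 of 163 in Ctrl and 145 of 371 in cKO. Myh4-dominated nuclei among them numbered 20 of 163, or 12.3% (7.66 to 18.3), and 78 of 371, or 21.02% (17.0 to 25.5).

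Nuclei that carried several myosins were examined in those with at least 5 adult UMIs, where every gene with at least 20% of the UMIs was counted. A single gene passed in 1551 of 1917 Ctrl nuclei, 80.9%, and in 1543 of 2026 cKO nuclei, 76.2%. Exactly 2 genes passed in 17.9% of Ctrl nuclei (16.3 to 19.7) and 21.5% of cKO nuclei (19.7 to 23.3), and 3 genes in 1.15% and 2.27%. Among the pairs, Myh1 with Myh4 was the most common mix in Ctrl, in 201 nuclei, and was found in 151 cKO nuclei. Myh2 with Myh1 was found in 68 Ctrl nuclei, 3.55% (2.76 to 4.48), and 149 cKO nuclei, 7.35% (6.26 to 8.58). Myh2 with Myh4 was found in 55 and 54 nuclei, and Myh7 with Myh2 in 2 and 13. Myh7 with Myh4 was found in 16 and 58 nuclei, and Myh4 UMIs were also common in non-fiber nuclei, as given above. These counts were taken at full depth, which was lower in cKO.

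The share held by the leading gene was then taken in the same nuclei. In nuclei led by Myh4, the leading gene held a median of 100% of the adult UMIs in both libraries, and 75.1% of these nuclei in Ctrl and 73.5% in cKO had no other adult myosin. In nuclei led by Myh2 the median was 77.8% in both, and 13.04% and 16.9% of the nuclei were pure. On average Myh1 made up 17.0% of the adult UMIs in Myh2-led Ctrl nuclei and 18.0% in cKO ones. Nuclei led by Myh1 were intermediate, with medians of 88.9% and 87.5%. Nuclei led by Myh7 had medians of 87.5% in 21 Ctrl nuclei and 100% in 234 cKO nuclei.

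All 36 pairs of the 9 genes were counted in myonuclei thinned to 500 UMIs and set beside the product of the single shares, the count that genes detected independently of each other would give. Myh2 and Myh1 were found together in 67 Ctrl nuclei where the product was 29.5, a ratio of 2.27 (1.76 to 2.87). In cKO they were found together in 129 nuclei where the product was 80.7, a ratio of 1.60 (1.34 to 1.89). This was the only pair of adult genes with a ratio above 1. Myh1 and Myh4 were together in 133 and 138 nuclei, with ratios of 0.524 (0.440 to 0.618) and 0.475 (0.4002 to 0.559). Myh2 and Myh4 had ratios of 0.355 and 0.370, and Myh7 and Myh4 of 0.360 and 0.363. Myh7 met Myh2 in 1 Ctrl nucleus and 20 cKO nuclei, and in cKO the ratio was 0.435 (0.266 to 0.671). Myh7 met Myh1 in 3 and 28 nuclei, with a cKO ratio of 0.425 (0.283 to 0.614). The 89 and 30 strict non-fiber nuclei held 0 nuclei with Myh2 and Myh1 together, but over all non-fiber nuclei there were 3 in Ctrl where the product was 1.67 and 5 in cKO where it was 1.01, a cKO ratio of 4.96 (1.62 to 11.4). What such background adds to the pairs in myonuclei was not tested.

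The excess of Myh2 with Myh1 was not the same in all marker classes, which were examined after the pooled values were seen. It was 1.91 times the product in Ctrl slow-marker nuclei (0.528 to 4.64, on 4 nuclei) and 3.22 times in cKO ones (2.19 to 4.55), and 2.37 and 1.66 times in fast-marker nuclei of Ctrl and cKO. In mixed-marker nuclei, where Myh2 and Myh1 were both high, it was 1.03 (0.723 to 1.41) and 1.01 (0.762 to 1.31). The pooled deficit of Myh7 with Myh4 was not found within most classes. Their ratio was 1.29 (0.269 to 3.60) in Ctrl and 0.819 (0.5098 to 1.24) in cKO slow-marker nuclei, 3.79 (0.784 to 10.9) and 1.72 (0.862 to 3.05) in mixed-marker nuclei, and 1.01 (0.661 to 1.48) in cKO fast-marker nuclei. All of these intervals include 1. Myh7 with Myh1 had a ratio of 1.21 (0.554 to 2.29) in cKO fast-marker nuclei. If 2 UMIs of each gene were asked for, the cKO excess of Myh2 with Myh1 was lost, at -0.014 on the log2 scale (-0.79 to 0.66).

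**Figure D4:**
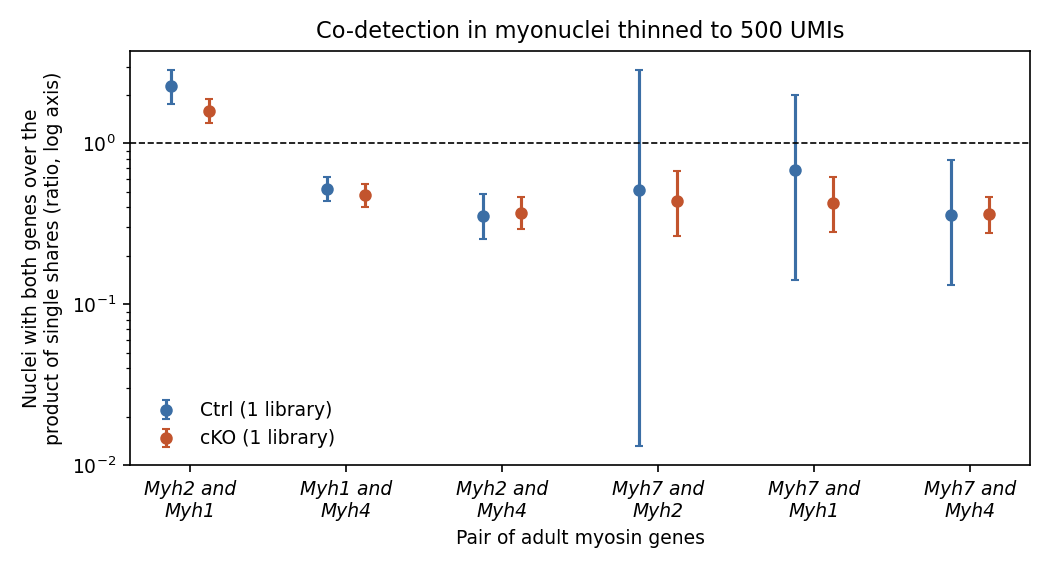
Number of myonuclei (thinned to 500 UMIs) with both genes of a pair divided by the product of the single shares, on a log axis, with exact binomial 95% intervals of 1 library each; the dashed line marks 1. Myh2 with Myh1 lies above the line in both libraries at 2.27 and 1.60, and each of the other 5 pairs of adult genes has a value below it.

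Myh7, Myh6 and Myh7b were found in the same nuclei. In cKO 100 of the 112 nuclei with a Myh6 UMI at full depth also had Myh7, and 173 of the 202 nuclei with Myh7b did. In Ctrl the same held for 7 of 7 and 14 of 16 nuclei. Thinned to 500 UMIs, the cKO nuclei with Myh7 and Myh6 were 6.67 times the product (4.28 to 9.91), those with Myh7 and Myh7b 6.38 times (4.80 to 8.30), and those with Myh6 and Myh7b 8.61 times (3.46 to 17.7). At this depth 28 of the 34 cKO nuclei with Myh6 and 70 of the 80 with Myh7b were slow-marker. Myh7 was detected in 42.7% of cKO slow-marker nuclei against 10.6% of all cKO myonuclei. Pooled ratios do not tell pairing within a class from a shared class. Ratios within classes are not given here for these pairs. The levels kept a similar proportion in both libraries. Myh7b had 12.9 UMIs per 100 Myh7 UMIs in Ctrl slow-marker nuclei (7.76 to 20.4) and 12.8 in cKO (11.3 to 14.4), and Myh6 had 3.68 (1.33 to 8.19) and 5.07 (4.20 to 6.08). Of the last 500 bases of the Myh7 transcript, 36.5% of the 90-base windows occurred unchanged in Myh6. Reads from such windows cannot be told apart between these 2 genes, and the Myh6 values are uncertain for that reason. The corresponding share was 7.79% between Myh2 and Myh1 and 0 for the other 5 genes.

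Each of these 3 genes hosts a microRNA in an intron. Myh6 (chr14:54941921-54966927, minus strand) and Myh7 (chr14:54970684-54994626, minus strand) lie in a row 3756 bp apart, and Myh7b lies on chr2:155611212-155634307 (plus strand; all positions in GRCm38, genes from GENCODE M21). The microRNAs were not measured here, and their mature sequences from RefSeq (GRCm38.p6) are shown because the levels of their host genes are the ones that were furthest apart between the libraries. Capitals mark the seed, bases 2 to 8 from the 5′ end, which pairs with targets.
mmu-miR-208a-3p, in Myh6: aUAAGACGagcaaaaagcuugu
mmu-miR-208b-3p, in Myh7: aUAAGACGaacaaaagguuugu
mmu-miR-499-5p, in Myh7b: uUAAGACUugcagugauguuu
The first pair share all 7 seed bases and are alike at 19 of 22 positions. The seed of miR-499-5p is alike at 6 of 7 positions.

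The other 6 genes form a cluster of 293287 bp on the plus strand of chromosome 11 (chr11:67078300-67371586), in the order Myh3, Myh2, Myh1, Myh4, Myh8 and Myh13. Myh2 and Myh1 are 2534 bp apart, and Myh1 and Myh4 13453 bp. Promoter windows of 300 bases, from 250 before to 50 after the start, were matched in RefSeq for all 9 genes. The stretches below are from the cluster's adult genes and Myh8 and are shown because they share a 14-base run, TTCTAATTATATCC, found in no other of 32851 mouse promoter windows (4, or 0.0122%, hold it on either strand). It ends 112 bases before the start of Myh2, 147 before Myh1, 145 before Myh4 and 41 before Myh8. Capitals mark this run and, in Myh1, Myh4 and Myh8, a second run, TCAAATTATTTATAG, which 3 windows (0.00913%) hold.
Myh2, chr11:67170842-67170935: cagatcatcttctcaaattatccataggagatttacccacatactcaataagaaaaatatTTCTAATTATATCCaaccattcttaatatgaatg
Myh1, chr11:67199876-67199975: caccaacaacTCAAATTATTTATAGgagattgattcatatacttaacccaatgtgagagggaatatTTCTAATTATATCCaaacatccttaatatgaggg
Myh4, chr11:67237594-67237687: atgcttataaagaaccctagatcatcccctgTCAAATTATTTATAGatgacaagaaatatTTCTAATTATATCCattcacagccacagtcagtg
Myh8, chr11:67277010-67277103: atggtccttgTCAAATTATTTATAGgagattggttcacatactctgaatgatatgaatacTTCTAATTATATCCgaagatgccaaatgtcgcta
The second run contains a match to the MEF2 consensus, the site of the MEF2 transcription factors. By that consensus 3 of the 10 windows of the 9 genes matched (those of Myh1, Myh4 and Myh8), against 3.19% of all windows. A match is a description of letters only.

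Several non-coding genes lie between or across the myosin genes, and their levels differed between nuclei dominated by different myosins. Myhas is an antisense RNA that overlaps Myh1 by 13320 bp and whose 5′ end lies 456 bp before the GENCODE start of Myh4. It had 2591 UMIs in Ctrl myonuclei and 973 in cKO, or 348 against 145 CPM, which is -1.26 on the log2 scale (-1.37 to -1.16). In Myh4-dominated nuclei its level was 431 CPM (414 to 449.8) for Ctrl and 276 CPM (257 to 296) for cKO, and in nuclei dominated by Myh1 at 64.5 CPM (47.6 to 85.5) and 52.2 CPM (38.0 to 69.8). Myhas was thus also lower in cKO among nuclei dominated by Myh4. Over all non-fiber nuclei it was at 169.96 CPM (149.6 to 192) and 86.5 CPM (63.1 to 116), and in the strict set at 64.7 CPM (39.5 to 99.9) and 82.95 CPM (35.8 to 163). Its values in Myh1-dominated nuclei do not exceed these, and its lower level in cKO was also found over all non-fiber nuclei, with a log2 ratio of -0.97 (-1.47 to -0.51). In fast-marker nuclei, where Myh4 was 1.28-fold higher in cKO, Myhas was at 379 and 223 CPM. 9430073C21Rik is an antisense RNA that overlaps Myh2 by 1838 bp and starts 818 bp before Myh1. It was at 25.5 CPM (15.4 to 39.9) in Myh1-dominated nuclei of Ctrl and 33.6 CPM (22.5 to 48.3) in those of cKO, against 9.38 CPM (6.91 to 12.4) and 5.81 CPM (3.38 to 9.30) in Myh4-dominated ones. 2310065F04Rik, a long intergenic RNA between Myh3 and Myh2, was at 128 and 63.6 CPM in myonuclei of Ctrl and cKO, with a log2 ratio of -1.01 (-1.18 to -0.84). In Ctrl it was at 142 CPM (132 to 153) in Myh4-dominated, 130.4 CPM (96.2 to 173) in hybrid and 118 CPM (94.9 to 146) in Myh1-dominated nuclei, with overlapping intervals. In cKO it was at 92.3 CPM (81.6 to 104) in Myh4-dominated and 78.8 CPM (61.2 to 99.9) in Myh1-dominated nuclei, again with overlap, and at 43.0 CPM (28.1 to 63.0) in hybrid nuclei, below the Myh4-dominated interval. Myh2-dominated nuclei were lower, at 38.2 CPM (21.4 to 63.1) and 35.5 CPM (22.7 to 52.8), and Myh7-dominated ones had 1 and 6 UMIs. Over all non-fiber nuclei 2310065F04Rik was at 57.6 and 34.6 CPM, and 9430073C21Rik at 4.06 and 7.69 CPM.

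Mhrt is an antisense RNA that overlaps Myh7 by 3666 bp. It had 15 UMIs in Ctrl myonuclei and 198 in cKO, a log2 ratio of 3.87 (3.12 to 4.74), with 12 and 192 of them in slow-marker nuclei. Per 100 Myh7 UMIs there were 7.36 Mhrt UMIs in Ctrl slow-marker nuclei (3.73 to 13.2) and 7.85 in cKO (6.74 to 9.10). Counting was run with the default parameters of Cell Ranger, which take sense reads, but the treatment of strand is not itself stated in the sources used here, so the values of overlapping antisense genes are given as uncertain. Gm29015 and Gm17428, both within Myh7, had 0 UMIs. Trpc4ap, which meets the end of Myh7b over 37 bp on the other strand, was at 78.5 and 68.6 CPM. Mir6923, Gm26476, Gm49130, Gm31251 and the microRNA genes Mir208a, Mir208b and Mir499 were annotated in these spans and not analysed here.

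**Figure D5:**
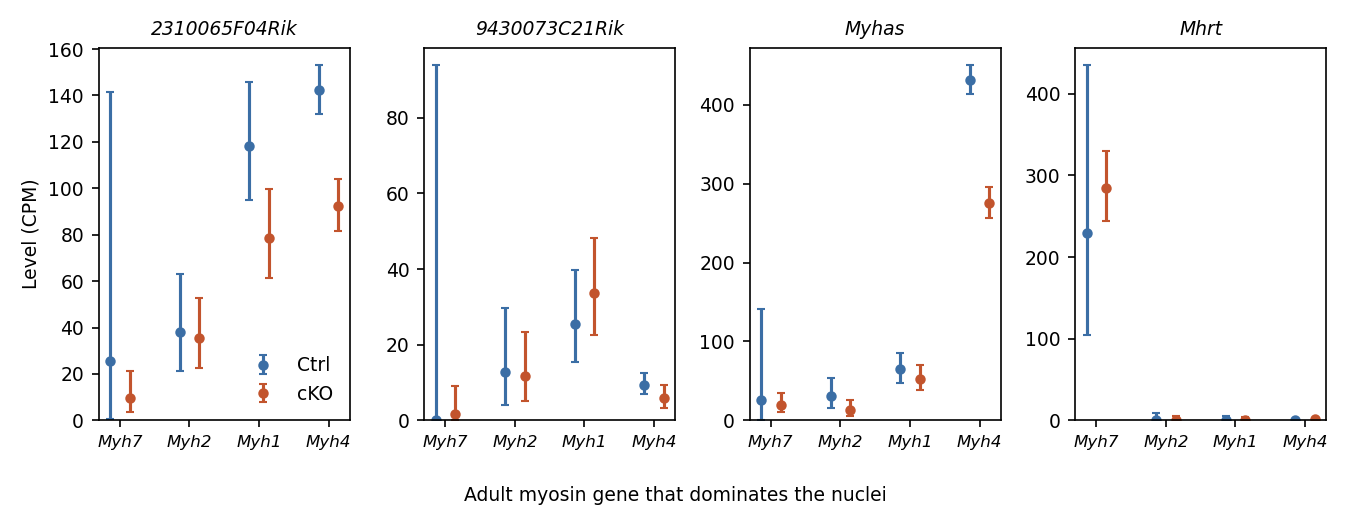
Level (CPM) of 4 non-coding genes of the myosin loci in nuclei dominated by each adult myosin gene, for the Ctrl and cKO libraries, each panel with its own axis from 0 and exact Poisson 95% intervals. Myhas is highest in Myh4-dominated nuclei, 2310065F04Rik is high in Myh4- and Myh1-dominated nuclei with overlapping intervals, and the highest points lie for 9430073C21Rik in Myh1-dominated nuclei and for Mhrt in Myh7-dominated nuclei.

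For each adult gene, the 5 genes with the most similar profile were taken from 6305 genes by the correlation of log2(CPM + 10) over 9 class-by-library values, which share libraries and so are not independent. Only classes with at least 100 nuclei in a library were used, so slow-marker nuclei entered from cKO only. Some of the values came from non-fiber nuclei. Myh7 was at 1709.6 CPM in cKO slow-marker nuclei and at most 198 CPM in the other values. The list for Myh7 thus rests largely on that value. Genes most like Myh7 were Tnnt1 (Pearson r = 0.98) and Tnnc1 (0.97), the slow troponins T and C, with Myh7b (0.97), Tsga10 (0.96) and the zinc finger gene Zfp462 (0.96). Tnnt1 and Tnnc1 were among the markers that made the classes. Genes most like Myh2 were Mdh1 (0.97), a malate dehydrogenase, Trak2 (0.96), an adaptor for mitochondrial transport, Ppara (0.94), a regulator of fatty acid oxidation, Pqlc1 (0.93) and A330074K22Rik (0.93). Genes most like Myh1 were less close, and were Cox10 (0.88), an assembly factor of cytochrome oxidase, Ugp2 (0.87), which makes UDP-glucose, the kinase Mapkapk3 (0.87), Pdhb (0.87), a subunit of pyruvate dehydrogenase, and Socs7 (0.85). Genes most like Myh4 were the phospholipase Plcd4 (0.99), the chromatin regulator Jarid2 (0.99), the transcription factors Maf (0.99) and Foxp2 (0.98), and Gdap1 (0.97). Between members, Myh7 and Myh4 had r = -0.85, and Myh2 and Myh1 had r = 0.60.

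Among 13 compared proteins that sit on or act on the thick filament, 4 were at least 2-fold higher in cKO myonuclei and 1 was lower, with a median log2 ratio of 0.19 beside -0.07 over all genes, of which 4.19% were at least 2-fold higher and 4.45% lower. The higher ones were the light chain genes Myl2 (18.1 against 160.2 CPM, 3.14 on the log2 scale), Myl3 (3.62 against 17.1 CPM) and Myl1 (763 against 1569.8 CPM), and Myom3 (113 against 276 CPM), an M-band protein. Myl2 and Myl3 are the slow light chains that pair with Myh7, and Myl1 encodes the fast essential light chains. The lower one was the light chain kinase gene Mylk4, at 2532 CPM in Ctrl and 999 in cKO.

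Of 16 thin filament genes, 5 were at least 2-fold higher and 1 lower, against 4.19% and 4.45% of all genes, with a median log2 ratio of 0.46. These were the slow troponins Tnnt1 (log2 ratio 3.31), Tnnc1 (3.25) and Tnni1 (2.56), the slow tropomyosin Tpm3 (2.81) and the leiomodin Lmod2 (1.12), while Lmod1, known from smooth muscle, was lower (-1.83). Of 12 genes of the Z disc and titin, Myoz2 (1.76) and Csrp3 (1.19) were at least 2-fold higher and 0 lower, against the same 4.19% and 4.45%, with a median of 0.16. Tnnt1, Tnnc1, Tnni1, Tpm3, Myl2, Myl3, Myom3 and Myoz2 are also slow markers of the classes.

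These shares of all genes apply to the next 3 lists too. Of 6 chaperones and ubiquitin ligases of myosin, the chaperone Hsp90aa1 was higher (17.3 against 39.3 CPM) and Trim63, which encodes the ligase MuRF1, was lower (1527 against 616 CPM). The myosin chaperone Unc45b was at 234 and 263 CPM and the myosin methyltransferase Smyd1 at 267 and 302 CPM. Among 4 non-sarcomeric and ancient myosin heavy chains compared, Myh10, a non-muscle myosin, was higher (38.1 against 98.9 CPM), and Myh9, Myh14 and Myh11 were less than 2-fold apart. Of 15 regulators of myosin genes, Prox1, a factor of slow fibers, was at 2.95 and 18.5 CPM and Vgll2, a cofactor of TEAD factors, at 16.1 and 36.5 CPM, both higher in cKO. Sox6, a repressor of slow genes, was at 3792 and 2528 CPM.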

How the data were processed

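Deposited tables held raw UMI counts per gene and barcode, which the authors made with Cell Ranger (3.1.0, default parameters) on mm10/GRCm38 (submitters' processing notes and methods). The labels and the methods name different versions of the 3′ kit. The members and gene lists were chosen with earlier results of these data known. Nuclei with at least 100 genes, at least 500 UMIs and at most 10% mitochondrial UMIs were kept (3833 Ctrl, 3908 cKO). Scrublet (in scanpy 1.11.5) marked 0 nuclei in each library, so its call did not work, and the nuclei with the 8% highest scores were removed (307 and 313). UMIs were summed per library and class. Poisson, binomial (Clopper-Pearson) and conditional ratio intervals are exact and 95%. Nuclei were thinned without replacement to 500 UMIs (1000 in an alternative). Named genes were the members, listed genes at least 2-fold apart with at least 20 UMIs, the 5 most similar genes and the genes of the loci. Unc45b, Smyd1, Sox6 and Plpp7 were named outside that rule after their values were seen. A gene that the rule names is not reported here. Scripts were tested on simulated data.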

Additional observations from a re-analysis of the deposited data

How the results depend on the processing

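No paired analysis was possible because each group is 1 pooled library. With 1 library a group, differences between the animals and between the conditions cannot be told apart, and depth (median 2040.5 and 1611 UMIs) limits calls per nucleus. The stricter non-fiber set, the marker-class split of co-detection and the removal of the 16% deepest nuclei were chosen after seeing the data. The strict set moved 7 of 8 background levels of the adult genes beyond their intervals.

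The direction of the level ratios of Myh7, Myh2, Myh1 and Myh4 in myonuclei held in all 28 alternatives, and 18 of these values stayed within the main interval. Averaging over the CPM of single nuclei gave log2 ratios of 3.57 for Myh7, 0.40 for Myh1 and -0.030 for Myh4. Leaving out the 1% of nuclei with most UMIs of the gene gave 6.26 for Myh7, where this takes most of the 56 Ctrl nuclei that had any, 1.06 for Myh2 and -0.15 for Myh4; for Myh3, Myh8, Myh6 and Myh7b it left Ctrl at 0 and gave no value. Without Malat1 and mitochondrial genes, which shifts every log2 ratio by 0.095, Myh2 was at 0.92, Myh1 at 0.60 and Myh4 at -0.021, and over all nuclei Myh4 was at -0.076. In the marker classes 18 of 20 values stayed within the interval. The others were 0.15 for Myh7 in slow-marker nuclei (limit at 80%) and -0.74 for Myh2 in mixed-marker nuclei (doublets kept).

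The difference in shares of dominated nuclei depended on depth. For Myh7 it was 5.99 points at 1000 UMIs, 7.63 unthinned and 0.773 with at least 5 myosin UMIs, against 2.84. For Myh2 it was 4.06, 4.20 and 0.296, and 1.04 with a limit of 80% and 1.18 with another seed, against 2.13. Myh1 was at 2.69 at 1000 UMIs, against 1.50. Myh4 turned from 2.97 to -2.46 at 1000 UMIs and -20.2 unthinned; the cause was not tested. For Myh2 with Myh1, the log2 ratio to the product in cKO was -0.014 with at least 2 UMIs of each gene, 1.69 within slow-marker and 0.020 within mixed-marker nuclei, against 0.68, and 0.045 within Ctrl mixed-marker nuclei, against 1.18. Without the 16% deepest nuclei it was 1.13 in Ctrl and 0.68 in cKO. Of 90 values for the other pairs of adult genes, 32 moved and kept their sign. Signs turned, for Myh7 with Myh4 within Ctrl slow-marker (0.37), Ctrl mixed-marker (1.92), cKO mixed-marker (0.78) and cKO fast-marker nuclei (0.015), and for Myh7 with Myh1 within cKO fast-marker nuclei (0.27). The counts of partner genes at least 2-fold apart were the same with a minimum of 50 UMIs.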
